A study of Ovis aries with 6 samples.

Results

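The miR-26 family was examined in small RNA libraries of longissimus muscle, the long muscle of the back, from 2 breeds of sheep. The breeds were Qianhua Mutton Merino, called QHMM here, and Small Tail Han, called STH, with 3 libraries each. Its members were all names in the deposited count table that read miR-26a or miR-26b, alone or followed by an arm or locus suffix, after the species prefix was removed. This gave 7 names among 10430, held in 12 of 11161 listed entries. The name miR-26a and the name miR-26b are the sheep miRNAs, and miR-26a-5p, miR-26b-5p, miR-26a-3p, miR-26a-2-3p and miR-26b-3p come from rat, mouse or human entries that were counted in the same libraries. The labels give the breed, the tissue and natural rearing conditions for both groups, without age or sex. They do not say that the libraries of a breed are different animals, so the p-values measure only how far these libraries spread, which may be technical.

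A miRNA hairpin is cut into a duplex of a 5p and a 3p strand, of which usually 1 is kept by Argonaute and pairs with target mRNAs through its seed, bases 2 to 8 from its 5′ end. In vertebrates miR-26a and miR-26b lie in introns of the genes for small C-terminal domain phosphatases. In mouse myoblasts miR-26a is known to promote differentiation, with the histone methyltransferase Ezh2 and the SMAD transcription factors of TGF-β signalling among its targets. In the RefSeq gene table of the sheep assembly ARS-UI_Ramb_v3.0, the gene MIR26A (synonym oar-mir-26a) lies within the span of CTDSP2, and MIR26B (synonym oar-mir-26b) within the span of CTDSP1. Both host genes encode phosphatases that act on the tail of RNA polymerase II. That assembly is not the one named for the counts, Oar_v3.1, and no coordinates are taken from it.

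The sequences of the 2 sheep miRNAs are shown first because they share a seed and their first 10 bases. The other lines show the 3p strands and the 2 short entries that carry the same first bases. Capitals mark the seed, and letters are those of the deposited table, with T in place of U.
miR-26a: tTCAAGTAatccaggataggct
miR-26b: tTCAAGTAattcaggataggt
miR-26a-3p (rat entry): cCTATTCTtggttacttgcac
miR-26a-2-3p (human entry): cCTATTCTtgattacttgtttc
miR-26b-3p (rat entry): cCTGTTCTccattacttggctc
Predicted locus chr18_34535, listed as rat miR-26a-5p: tTCAAGTAatccaggaag
miR-1297 (human entry): tTCAAGTAattcaggtg
Counted from the 5′ end, miR-26a and miR-26b share their first 10 bases and differ at C11T and C21T over the 21 bases compared, and miR-26a has 1 base more. A read that ends before base 11 cannot be given to one of them. The shortest listed sequence of any name has 12 bases. The 3p strands are less alike. miR-26a-3p and miR-26a-2-3p, which stand for different hairpins with the same 5p strand, share the seed CTATTCT and differ at 4 of 21 bases, whereas miR-26b-3p has the seed CTGTTCT and differs from miR-26a-3p at 7 of 21.

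miR-26a was one of the main miRNAs of this muscle. It had 34687, 39851 and 34719 CPM (counts per 1000000, over the sum of 1 entry per name) in QHMM replicates 1, 2 and 3, against 46972, 43599 and 35197 CPM in STH replicates 1, 2 and 3. The STH libraries 1 and 2 were the highest, and STH replicate 3 lay beside the QHMM libraries and below QHMM replicate 2, so that the breeds overlapped. In raw counts this was 261778, 222084 and 258410 in QHMM, against 343899, 269132 and 279122 in STH. The mean over 6 libraries was 39171 ± 5228 CPM (SD, n = 6), place 3 among all names. Of the counts over 1 entry per name it held 3.47% to 4.70%. Per 100 counts of miR-1, the most abundant miRNA of the fibres, miR-26a had 10.2, 9.50 and 10.2 counts in QHMM, against 14.9, 11.5 and 8.83 in STH. On this scale STH replicate 3 was the lowest library and STH replicates 1 and 2 were again the highest.

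miR-26b, with the same seed, was 13.0-fold less abundant by mean CPM. It had 2602, 2925 and 2764 CPM in QHMM replicates 1, 2 and 3, against 3516, 3424 and 2907 CPM in STH replicates 1, 2 and 3. As for miR-26a, STH replicates 1 and 2 were highest, and STH replicate 3 lay between QHMM replicates 2 and 3. The mean over 6 libraries was 3023 ± 366 CPM (SD, n = 6), place 37 among all names.

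**Figure D1:**
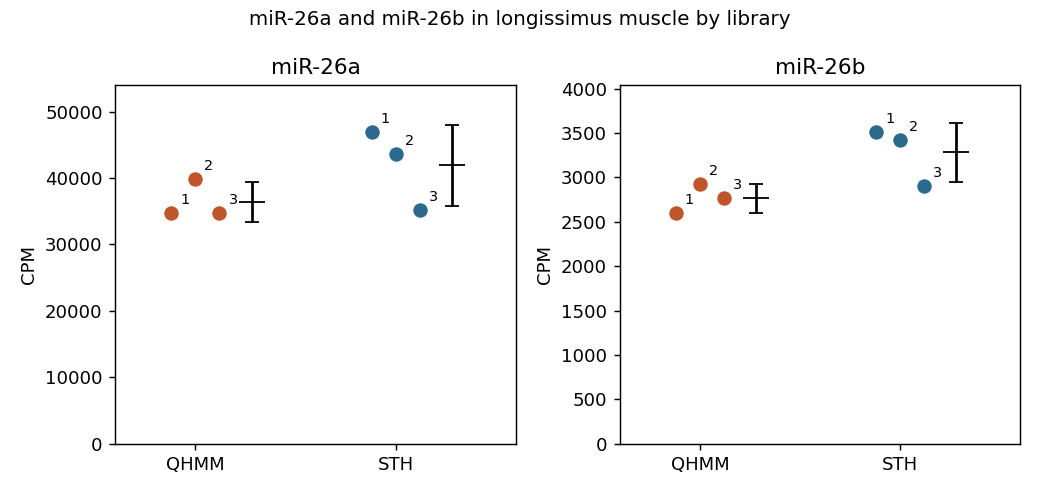
CPM of miR-26a (left) and miR-26b (right) in QHMM and STH libraries. Points are single libraries with their replicate number, and bars give the mean and SD of 3 libraries. In both panels STH replicates 1 and 2 lie above all other libraries and STH replicate 3 lies within the QHMM range (miR-26a 35197 CPM, miR-26b 2907 CPM).

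In the order of levels, counts of mature sequences were compared without a length term. Only miR-1, the miRNA of heart and skeletal muscle fibres that is listed here as rat miR-1b (365665 ± 40089 CPM, SD, n = 6), and miR-133, which is made from the same gene clusters (113352 ± 30437 CPM), had higher means than miR-26a, and both were above it in every library. The next name, miR-206-3p, a miRNA of skeletal muscle and regenerating fibres, had 35912 ± 4442 CPM and was below miR-26a in 5 of 6 libraries. The means of miR-206-3p and miR-26a differed by less than 1 SD of either. The name at place 5, miR-145-5p of smooth muscle (30169 ± 4978 CPM), was below miR-26a in 6 of 6 libraries. miR-26a held place 3 in 4 libraries and place 4 in QHMM replicate 3 and STH replicate 3. For miR-26b the neighbours were let-7b (3275 ± 809 CPM) and miR-191 (2709 ± 134 CPM). let-7b was below miR-26b in 2 of 6 libraries and miR-191 in 5, and neither mean differed from that of miR-26b by more than the larger SD of the pair.

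The level of both miRNAs varied little between libraries. On the scale of log2(CPM + 1) the SD over 6 libraries was 0.19 for miR-26a and 0.17 for miR-26b, while the median over the 202 names with a mean of at least 100 CPM was 0.36. By this measure miR-26b had place 13 and miR-26a place 21, counted from the least variable name. The highest library exceeded the lowest by 1.35-fold for miR-26a and by 1.35-fold for miR-26b.

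The proportion of the 2 sheep members was more even still. miR-26b had 7.50, 7.34 and 7.96 counts per 100 counts of miR-26a in QHMM replicates 1, 2 and 3, against 7.48, 7.85 and 8.26 in STH replicates 1, 2 and 3. The breeds overlapped, with 7.60 ± 0.32 in QHMM, against 7.87 ± 0.39 in STH (SD, n = 3 each). The coefficient of variation over the 6 libraries was 4.53% for this ratio, against 13.3% for the CPM of miR-26a and 12.1% for that of miR-26b. The libraries still differed by more than counting error, since the widest 95% Wilson interval of the ratio in a library spanned 0.233 counts per 100 and the 6 ratios spanned 0.920. Intervals cover counting error only.

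**Figure D2:**
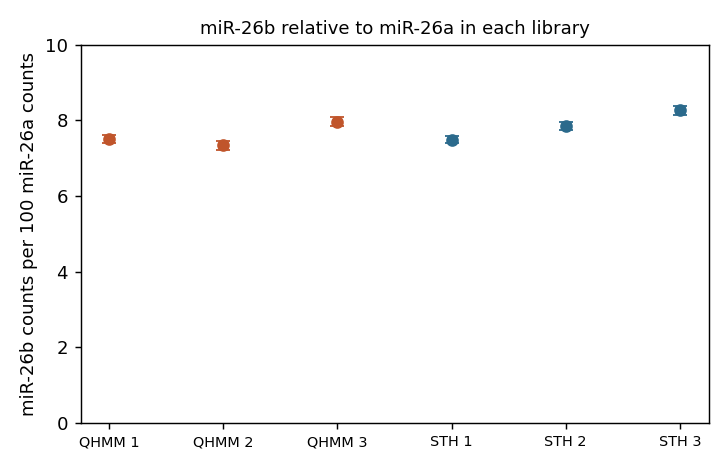
miR-26b counts per 100 miR-26a counts in each library, with 95% Wilson intervals for counting error. All 6 libraries lie between 7.34 and 8.26, and QHMM and STH overlap.

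The seed of miR-26, TCAAGTA, was among the most abundant in the tissue. Summed over the 6 names that carry it, it had 42203 ± 5576 CPM (SD, n = 6), place 3 by mean among 6116 seeds. Above it were the seed led by miR-1 (402494 CPM over 30 names, of which miR-1 itself had 365665 CPM) and that led by miR-133 (113446 CPM). Next below was that of the miR-30 family (38041 ± 3661 CPM). The miR-26 and miR-30 seeds differed by less than the SD of the miR-26 seed. The seed at place 6, led by a predicted locus, had 34442 ± 20923 CPM, and its SD reached past the mean of the miR-26 seed. The order of seeds within each library was not computed. The sheep entry of miR-26a held 92.8% of all counts with this seed and the sheep entry of miR-26b 7.18%.

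The other names with this seed had few counts. The largest was miR-26a-5p, for which the mouse entry stands, with 60, 28 and 40 counts in QHMM, against 66, 42 and 65 in STH, a mean of 7.06 ± 1.61 CPM (SD, n = 6). Its 22 bases are the same as those of the sheep entry, and it had 0.0184% of that entry's total. The same sequence under the rat name gave 15, 14 and 21 counts in QHMM, against 28, 25 and 43 in STH, and under the human name 3 counts in all. A read of this sequence was thus not counted in each entry that lists it. The same held for all 22 sheep sequences with at least 100 counts that are also listed for another species, where the sheep entry was higher in 22 of 22. Which reads went to the other entries is not stated in any source used here. The name miR-26b-5p had 3 counts in its rat entry and 1 count each in its mouse and human entries.

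A pair of short entries followed miR-26 over its first bases and then left it. The predicted locus chr18_34535 has 18 bases, shares the first 16 with miR-26a and then differs at T17A and A18G. It had 40, 25 and 38 counts in QHMM, against 50, 31 and 38 in STH. Per 10000 counts of miR-26a this was between 1.13 and 1.53 in the 6 libraries. miR-1297, known as a human name and 17 bases long here, shares its first 15 bases with miR-26b and differs at A16T and T17G. It had 9, 7 and 19 counts in QHMM, against 17, 20 and 13 in STH, with a log2 fold change of -0.51 and a 95% interval of -1.55 to 0.52 (adjusted p = 0.687, edgeR). The remaining name with this seed, the human miR-4465, had 2 counts, both in QHMM replicate 1.

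**Figure D3:**
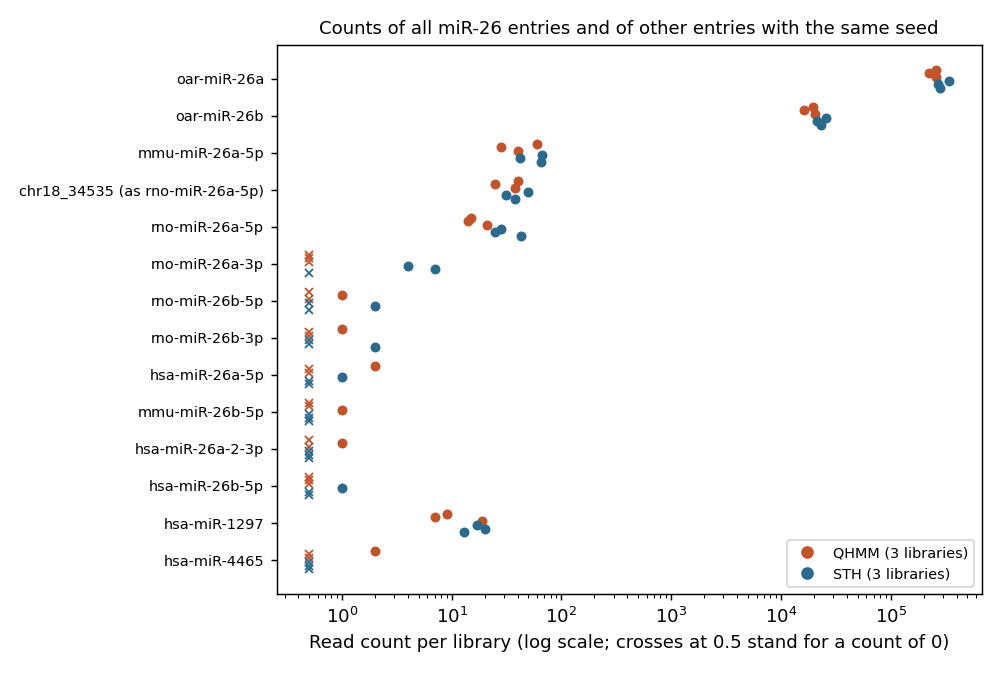
Read counts (log scale) of the 12 entries of the miR-26 family and of 2 other entries with the same seed, with 1 point per library and crosses for a count of 0. The sheep entries of miR-26a and miR-26b lie far above all others, and entries of other species with the same sequence have at most 66 counts in a library.

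The 3p strands were close to absent. All 3 names together had 15 counts over the 6 libraries, or 8.52 per 1000000 counts of the sheep 5p strands. miR-26a-3p had 0, 0 and 0 counts in QHMM, against 4, 7 and 0 counts in STH. miR-26a-2-3p had 0, 1 and 0 counts in QHMM and none in STH, and miR-26b-3p had 1, 0 and 0 counts in QHMM, against 0, 0 and 2 in STH. These entries have rat or human letters. Whether the sheep 3p strands have the same letters, and would be counted here, was not tested.

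The counts of miR-26a-3p came from STH replicates 1 and 2, the libraries with the most miR-26a by CPM. The sum in STH was 0.513 CPM (exact Poisson 95% interval 0.256 to 0.919). In QHMM none was found, and the same interval ran up to 0.179 CPM (0.146 CPM for a limit of 3 counts over the group). Of the 11 counts in STH 7 came from replicate 2, and STH replicate 3 had 0 like every QHMM library. For the 3 names summed, QHMM had 2 counts and STH 13, which is 2.50 against 13.5 per 1000000 counts of the 5p strands. The ratio of QHMM over STH was 0.185, with an exact 95% counting interval of 0.0203 to 0.818. Without STH replicate 2 the interval was 0.0277 to 1.57. No 3p name passed the filter on low counts, and with no filter miR-26a-3p had an adjusted p of 0.312 (edgeR quasi-likelihood test, unadjusted p = 0.00367).

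The comparison of QHMM with STH asks whether the miRNA content of the muscle differs between these breeds. Of the 7 miR-26 names 3 had enough counts to be tested, and none passed the test. miR-26a averaged 36419 ± 2972 CPM in QHMM, against 41923 ± 6064 CPM in STH (SD, n = 3 each). Its log2 fold change, QHMM over STH, was -0.20 (standard error 0.20, adjusted p = 0.712, edgeR quasi-likelihood test with Benjamini-Hochberg adjustment over 1274 names). The 95% interval of the difference ran from -0.64 to 0.24, that is from 0.643-fold to 1.18-fold. miR-26b averaged 2764 ± 161 CPM in QHMM, against 3282 ± 328 CPM in STH (SD, n = 3 each). Its log2 fold change was -0.25 (standard error 0.22, adjusted p = 0.676, edgeR), with an interval of -0.73 to 0.24. miR-26a-5p had -0.40 (standard error 0.33, adjusted p = 0.622, edgeR) and an interval of -1.11 to 0.30. Exact permutation tests of the CPM (two-sided) gave p = 0.20 for each of the 3, where 3 against 3 libraries allow no p below 0.10.

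Over all names tested 2.2% were called, 0.314% as higher in QHMM and 1.88% as lower in QHMM, and of the 3 miR-26 names 0 were called by edgeR and 0 by DESeq2. An unadjusted p under 0.05 was found for 0 of the 3, against 13.7% of all names tested (7.61% with QHMM lower). For none of the 3 did the libraries of the breeds separate, as they did for 17.2% of the names tested (8.71% with QHMM lower). The breeds separated for miR-26b when CPM were taken over all entries of the table, and overlapped on every other total used. The share of all names that separate on the total over all entries was not computed, so this separation is not read as a result about miR-26b. All 3 log2 fold changes were below 0, where the median over all names was 0.03. miR-26a and miR-26a-5p have 1 sequence, so that these are not 3 independent values. Leaving out QHMM replicate 2, the QHMM library with the most miR-26a, moved the log2 fold change of miR-26a to -0.37 (adjusted p = 0.410, edgeR). Dropping the highest QHMM library lowers the QHMM mean by construction. Without STH replicate 2 the value was -0.12 (adjusted p = 0.935, edgeR), the other end of the range over single libraries left out.

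**Figure D4:**
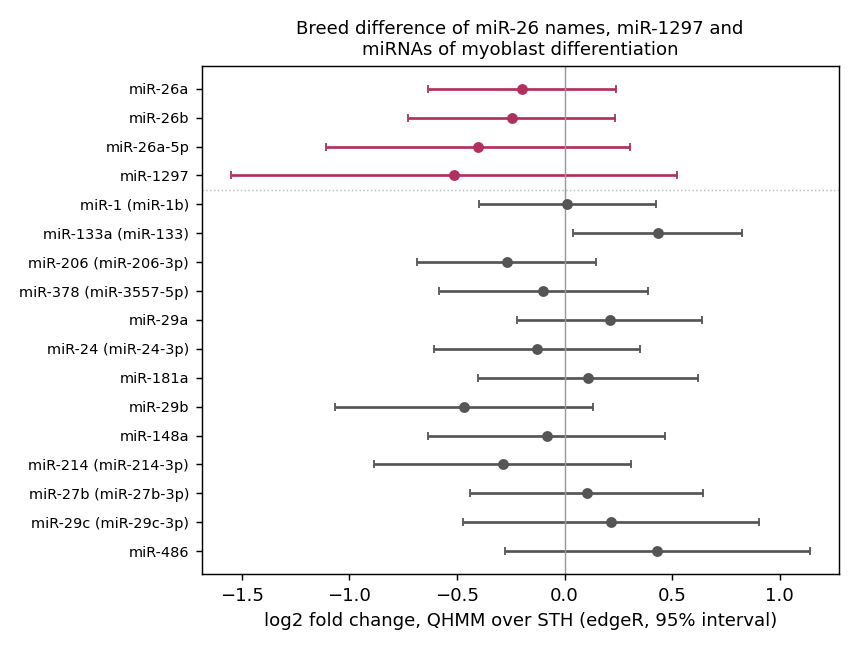
Log2 fold change of QHMM over STH with its 95% interval from edgeR for the tested miR-26 names and miR-1297 (red, above the dotted line) and for other miRNAs of myoblast differentiation (grey, most abundant first, listed name in brackets). The intervals of miR-26a, -0.64 to 0.24, and miR-26b, -0.73 to 0.24, include 0, and the point of miR-1297 lies farthest below 0, at -0.51.

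Other miRNAs known to act in myoblast differentiation were read from the same fit. All 14 listed miRNAs, miR-26a included, were found and tested, and none passed in either direction. Of these, 7 had a log2 fold change above 0 and 7 below, with a median of -0.04, against 0.03 over all names. miR-1, the most abundant, had 0.01 (adjusted p = 0.979, edgeR). miR-133 had the lowest unadjusted p of the list, with a log2 fold change of 0.43 (adjusted p = 0.329, edgeR). miR-26a lay within the range of the list, which ran from -0.47 for miR-29b, a repressor of collagen and other matrix genes, to 0.43 for miR-133.

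The composition of the samples was read from miRNAs of single cell types. The muscle fibre list (miR-1, miR-133, miR-133b-3p and miR-206-3p, 4 of 4 found) summed to between 514637 and 545029 CPM in QHMM and between 449097 and 535681 CPM in STH, and its most abundant member was miR-1. Of its 3 tested members 2 had a log2 fold change above 0 (miR-1 0.01, miR-133 0.43) and 1 below (miR-206-3p -0.27). The red blood cell list (miR-451-5p and miR-144-3p, 2 of 2 found) ranged from 18861 to 83713 CPM in QHMM and from 7156 to 13683 CPM in STH, without overlap. miR-126a-3p of endothelium had 9966 to 22831 CPM in QHMM and 18717 to 20414 CPM in STH. The vessel wall list (2 of 2 found, led by miR-145-5p) summed to 32381 to 44453 CPM in QHMM and 40105 to 52837 CPM in STH. The fibroblast list (2 of 2, led by miR-199a-3p) gave 1982 to 2767 CPM in QHMM and 1887 to 3617 CPM in STH. The leukocyte list (2 of 2, led by miR-142-3p) gave 585 to 732 CPM in QHMM and 331 to 556 CPM in STH, without overlap. Among single names tested 17.2% did not overlap. No such share was computed for sums, as of the leukocyte and red blood cell lists. The members of the leukocyte list went different ways, with 501 ± 101 CPM of miR-142-3p in QHMM, against 247 ± 32.8 CPM in STH, and 148 ± 68.4 CPM of miR-223-3p in QHMM, against 170 ± 90.2 CPM in STH (SD, n = 3 each). The epithelium list (5 of 5, led by miR-200a) was near 0, with 3.95 to 28.6 CPM in QHMM and 2.75 to 18.6 CPM in STH. No marker was at 0 in all libraries, and none of those with enough counts passed the test (miR-133b-3p and 4 of 5 epithelium markers had too few). In bulk tissue fewer cells of a type and less RNA per cell cannot be told apart. When the red blood cell names were left out of the fit, the log2 fold change was -0.20 for miR-26a (adjusted p = 0.711, edgeR) and -0.25 for miR-26b (adjusted p = 0.676, edgeR). The red blood cell sum was led by QHMM replicate 3, with 82384 CPM of miR-451-5p, against 18703 and 19640 CPM in QHMM replicates 1 and 2. Leaving these names out of the fit does not test whether blood content bears on miR-26. The part of any cell type in the level of miR-26 was not tested.

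The name whose pattern over the 6 libraries was most like that of miR-26a was miR-26b. Likeness was measured as the root mean square difference of log2(CPM + 1) after each name was centred on its own mean, over 201 other names with a mean of at least 100 CPM. miR-26b differed from miR-26a by 0.059, where the median name differed by 0.36. This measure is smaller for names that vary little. The SD was 0.19 for miR-26a and 0.17 for miR-26b, against a median of 0.36, so the median difference also reflects the larger spread of other names. The difference of 0.059 was below the SD of either name. The next 5 names were the predicted loci chr17_33469_star (0.080) and chr17_32844_mature (0.090), then miR-3557-5p (0.090), miR-3589 (0.091) and miR-3586-3p (0.099). The entry that stands for miR-3557-5p holds the sequence of miR-378, a miRNA from an intron of the metabolic coactivator gene PPARGC1B. All of these had a negative log2 fold change, between -0.10 and -0.37, and none passed the test. They were chosen by likeness to miR-26a over these same libraries, so their shared sign is no separate evidence of a breed difference. The values are descriptions over 6 libraries, and the names share library totals. Whether any reads are shared by miR-26a and miR-26b is not stated in the sources used here.

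**Figure D5:**
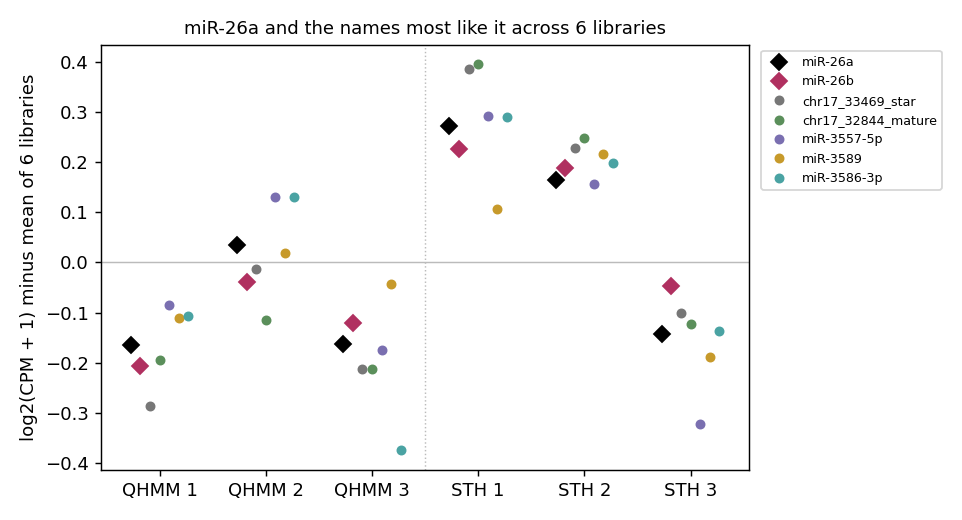
Log2(CPM + 1) of miR-26a, miR-26b and the 5 other names most like miR-26a, each centred on its mean over 6 libraries, for QHMM (left) and STH (right). miR-26a and miR-26b (diamonds) lie close together in every library, with a root mean square difference of 0.059, and are highest in STH replicates 1 and 2.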

How the data were processed

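Small RNA of the longissimus muscle was size-selected on gels, and libraries were made with an Ion Total RNA-Seq kit for single-end Ion Proton sequencing. The authors deposited raw counts per mature sequence, without normalization, for sheep, rat, mouse and human miRNAs and predicted loci. In the submitters' processing notes the genome build Oar_v3.1 and the tool DESeq are listed. Aligner, miRNA caller and the handling of multiply matching reads: not given in the sources used here. Totals over all entries were 8062231 to 10276427 in QHMM and 8681817 to 11282332 in STH. Of entries with 1 name the one with the highest total stood, which left 5572865 to 7546762 counts in QHMM and 6172849 to 7930202 in STH. No pair of libraries of a breed was a duplicate (chi-square per degree of freedom of at least 80.3).

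QHMM was set against STH in edgeR 4.0.16 (R 4.3.3; robust quasi-likelihood test, TMM factors, filterByExpr, adjusted p under 0.05, no covariates), checked on simulated data. The standard error was derived from the F statistic. Alternatives used DESeq2 1.42.0, other factors and filters, a replicate block, other treatments of entries with 1 name, other CPM totals and leaving out each library. Values per library were computed in Python 3.11.15 (scipy 1.17.1, numpy 2.4.6, pandas 2.3.3).

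The members and lists were chosen with earlier results of these data known. The rule for named miRNAs takes all names of the family, the names that share its seed, the 5 names most like miR-26a among those that share no run of 15 bases with it, and from each list the most abundant member and every member past the threshold. List members were matched by name with or without the arm, and miR-1 and miR-378 also by the rat names miR-1b and miR-3557-5p, chosen after the names were seen. miR-133 and miR-29b were named as the ends of the list and chosen after their values were seen. Sequences are those of the deposited table.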

Additional observations from a re-analysis of the deposited data

How the results depend on the processing

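Under 16 alternatives each, the log2 fold changes of miR-26a, miR-26b and miR-26a-5p stayed below 0 and none passed the threshold. With each library left out the value for miR-26a ran from -0.37 to -0.12, that for miR-26b from -0.38 to -0.17 and that for miR-26a-5p from -0.60 to -0.34. Over all alternatives the adjusted p of miR-26a ran from 0.410 to 0.935 and that of miR-26b from 0.476 to 0.929. The number of miR-26 names called was 0 in each of these fits, those without a library included. The count over all names, 28 of 1274 tested, was 64 of 9972 when low counts were not filtered. It was 8 of 930 when each library had to hold at least 10 counts. With DESeq2 it was 49 of 1274, and with known names only 6 of 487. When single libraries were left out it was 16 to 35. This was 16 of 1368 without QHMM replicate 3, 16 of 1345 without STH replicate 3 and 18 of 1373 without STH replicate 2. The filter and the set of names thus changed how many names were tested, and the counts are not shares of 1 total. The cause of the differences was not tested.

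With the replicate number of the titles as a block, miR-26a had -0.20 (adjusted p = 0.617, edgeR), miR-26b -0.25 and miR-26a-5p -0.41, and 26 names were called in all. Samples with 1 number correlated by 0.061, 0.239 and 0.119 in their deviations from the breed means, and every library was closest to the one of its own number. These values are low, and QHMM replicate 1 had 0.0185 with STH replicate 3, close to the 0.061 with its own number. With 3 libraries per breed the deviations are tied together by the breed mean, and few matchings are possible. A pairing can thus be neither shown nor excluded from them, and the labels give none. The CPM depends on its total. Against the total over all entries, which is also the total when entries of 1 name are summed, miR-26a had a mean of 28194 CPM and miR-26b 2175 CPM. Without miR-1 in the total they had 61890 and 4778 CPM. The ratio of QHMM to STH was 0.866 to 0.897 for miR-26a and 0.841 to 0.870 for miR-26b with other totals, among them 1 without red blood cell names that was added after the data were seen. On the total over all entries, the breeds did not overlap for miR-26b, with 1987 ± 66.0 CPM in QHMM, against 2364 ± 292 CPM in STH (SD, n = 3 each). How many of all names do not overlap on this total was not computed, and on every other total used the breeds overlapped for miR-26b. Depth limits the 3p strands, with at most 7 counts in a library.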
